A study of Mus musculus with 16 samples.

Results

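The nuclear genes for subunits of the mitochondrial respiratory chain and ATP synthase were examined in embryonic mouse adrenal glands that had lost Dicer, which releases mature microRNAs from their hairpin precursors. This gene family was chosen with earlier results of these data known. Its members were taken by symbol: Nduf genes (complex I), Sdh genes (complex II), Uqcr genes (complex III), Cox4 to Cox8 genes (complex IV) and Atp5 genes (complex V), without pseudogenes and assembly factors. This gave 82 of the 18193 genes with a probe set of their own on the array, 36 in complex I, 4 in complex II, 8 in complex III, 17 in complex IV and 17 in complex V. Of these, 80 were bright enough to be tested, among 13642 genes tested in all. Ndufb4 and Cox7b2 fell below the filter on dim probe sets. Ndufa11 and Ndufs6 were represented only by probe sets that carry several gene symbols, and they were not analysed here.

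Whole glands were profiled on 16 Affymetrix arrays, 4 in each of 4 groups. Knockout (KO) embryos carried an Sf1-Cre transgene and 2 floxed Dicer alleles (Dicer lox/lox) and were taken at embryonic days E15.5 and E16.5. Controls, which the labels call WT, were littermates without Cre at the same stages, and all embryos were of C57BL/6 background. The Sf1 regulatory region drives Cre in Sf1 cells, which include the adrenal cortex, so the other cells of the gland keep Dicer. Glands of a genotype were pooled within each of 4 litters per stage, so the spread between arrays of a group is a spread between pools from different litters. The comparison of genotypes asks which transcripts change when the cortex loses Dicer, and the comparison of stages asks what 1 day of development adds.

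The respiratory chain passes electrons from NADH (complex I) and succinate (complex II) through ubiquinone, complex III and cytochrome c to oxygen (complex IV), pumping protons that ATP synthase (complex V) uses to make ATP. Most subunits are encoded in the nucleus and imported, while a small core comes from mitochondrial DNA, which none of the members represents. In the adrenal cortex mitochondria have a second role, since the first and last steps of steroid synthesis take place inside them. Several complex IV subunits exist as isoforms, with Cox6a2, Cox7a1 and Cox8b made mainly in heart and skeletal muscle. Ndufa4 carries a complex I symbol, but its protein is now known as a subunit of complex IV.

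MicroRNAs with reported targets among these genes would be lost from cells without Dicer, and their mature sequences are given here for that reason. In human cells miR-210 has been reported to repress NDUFA4, SDHD and the heme A synthesis gene COX10, and in rat neurons miR-338 to repress Cox4i1. The sequences below are those of RefSeq, from loci on GRCm38.p6 at chr7:141221407-141221428 (miR-210-3p) and chr11:120014781-120014802 (miR-338-3p), both on the minus strand. Capitals mark the seed, the stretch that pairs with a target.
mmu-miR-210-3p: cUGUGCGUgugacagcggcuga
mmu-miR-338-3p: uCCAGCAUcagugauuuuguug
The seeds differ, and the arrays do not measure either mature microRNA.

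The arrays held adrenal tissue in every group. The mean log2 signal of 9 cortex markers, which include the steroid enzymes Cyp11a1 and Cyp11b1, was 12.4 to 12.8 in KO and 13.0 to 13.2 in control arrays at E16.5. Dicer1 itself had log2 signals of 8.00 to 8.36 in KO and 8.50 to 8.64 in control arrays at E15.5, and 8.09 to 8.42 in KO against 8.45 to 8.83 in control arrays at E16.5 (differences −0.35 with adjusted p = 0.0638, and −0.36 with adjusted p = 0.0414, limma). Whether its probe set covers the deleted exon is unknown here, so this is a weak check of the labels. Control E16.5 replicate 2 stood apart. Its 3′ minus 5′ signal of control probe sets was 3.15 on the log2 scale against 0.19 to 1.62 on the other 15 arrays, and all 8 of 8 muscle markers were highest on it. Selected E16.5 results are given with and without this array, and the others with it included. KO arrays also had a slightly higher mean signal over all probe sets, 6.35 to 6.37 against 6.31 to 6.32 in controls, so that the median KO minus control difference of all genes was 0.07 at E15.5 and 0.08 at E16.5.

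At E15.5 none of the 80 subunit genes differed between KO and control glands (limma, Benjamini-Hochberg adjusted p under 0.05), while 5.86% of all genes tested did (2.18% lower and 3.69% higher). An unadjusted p under 0.05 was reached by 4 members, Ndufc1, Ndufv1, Cox7a2l and Atp5g3, all lower in KO, where 19.0% of all genes reached it. Of the 13642 genes, 851 reached it lower in KO and 1742 higher. The differences ran from −0.42 for Cox7a1 to 0.51 for Ndufa4l2, with a median of −0.01 against 0.07 over all genes. The 95% interval of the difference lay within 0.5 of 0 on the log2 scale, a change of less than 1.41-fold, for 62 of the 80 members, against 56.7% of all genes. Among the 1151 genes with a mean log2 signal over 11 the share was 74.3%, and among the 66 members that bright it was 86.4%. The band of 0.5 was chosen after the values were seen. Of the members, 42 (52.5%) lay below 0 and 38 above, where 35.8% of all genes lay below 0.

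At E16.5 no subunit gene rose in KO glands, where 6.99% of all genes did, and 2 fell, Atp5g1 and Ndufc1, where 3.56% of all genes did. In both directions together 10.5% of all genes passed. An unadjusted p under 0.05 was reached by 6 members, all lower in KO, against 24.0% of all genes in either direction. Of the 13642 genes, 989 reached it lower in KO and 2290 higher. The median difference was −0.06 against 0.08 over all genes, and 53 of 80 members lay below 0, against 35.7% of all genes. The 95% interval lay within 0.5 of 0 for 58 members, against 52.3% of all genes. The median was −0.05 for complex I, 0.05 for complex II, −0.09 for complex III, −0.05 for complex IV and −0.07 for complex V. Leaving out control E16.5 replicate 2 gave a median of −0.04, against 0.07 over all genes, with 53 members below 0 and 2 lower at the threshold, Atp5g1 and Uqcrq, where 12.5% of all genes passed. The signs of 22 members turned without it. The median then was −0.01 for complex I, −0.23 for complex II, −0.13 for complex III, −0.04 for complex IV and −0.03 for complex V, so that only the sign of complex II turned. Since 66 members had a mean log2 signal over 11, they were also set beside the 1151 genes that bright. The bright members had a median of −0.06 at E16.5 and −0.02 at E15.5, against 0.04 and 0.02 for bright genes in general. The 95% interval lay within 0.5 of 0 for 80.3% of the bright members at E16.5, against 70.2% of bright genes. Of the 1151 bright genes, 29 rose and 50 fell at E16.5, and 8 rose and 27 fell at E15.5.

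**Figure D1:**
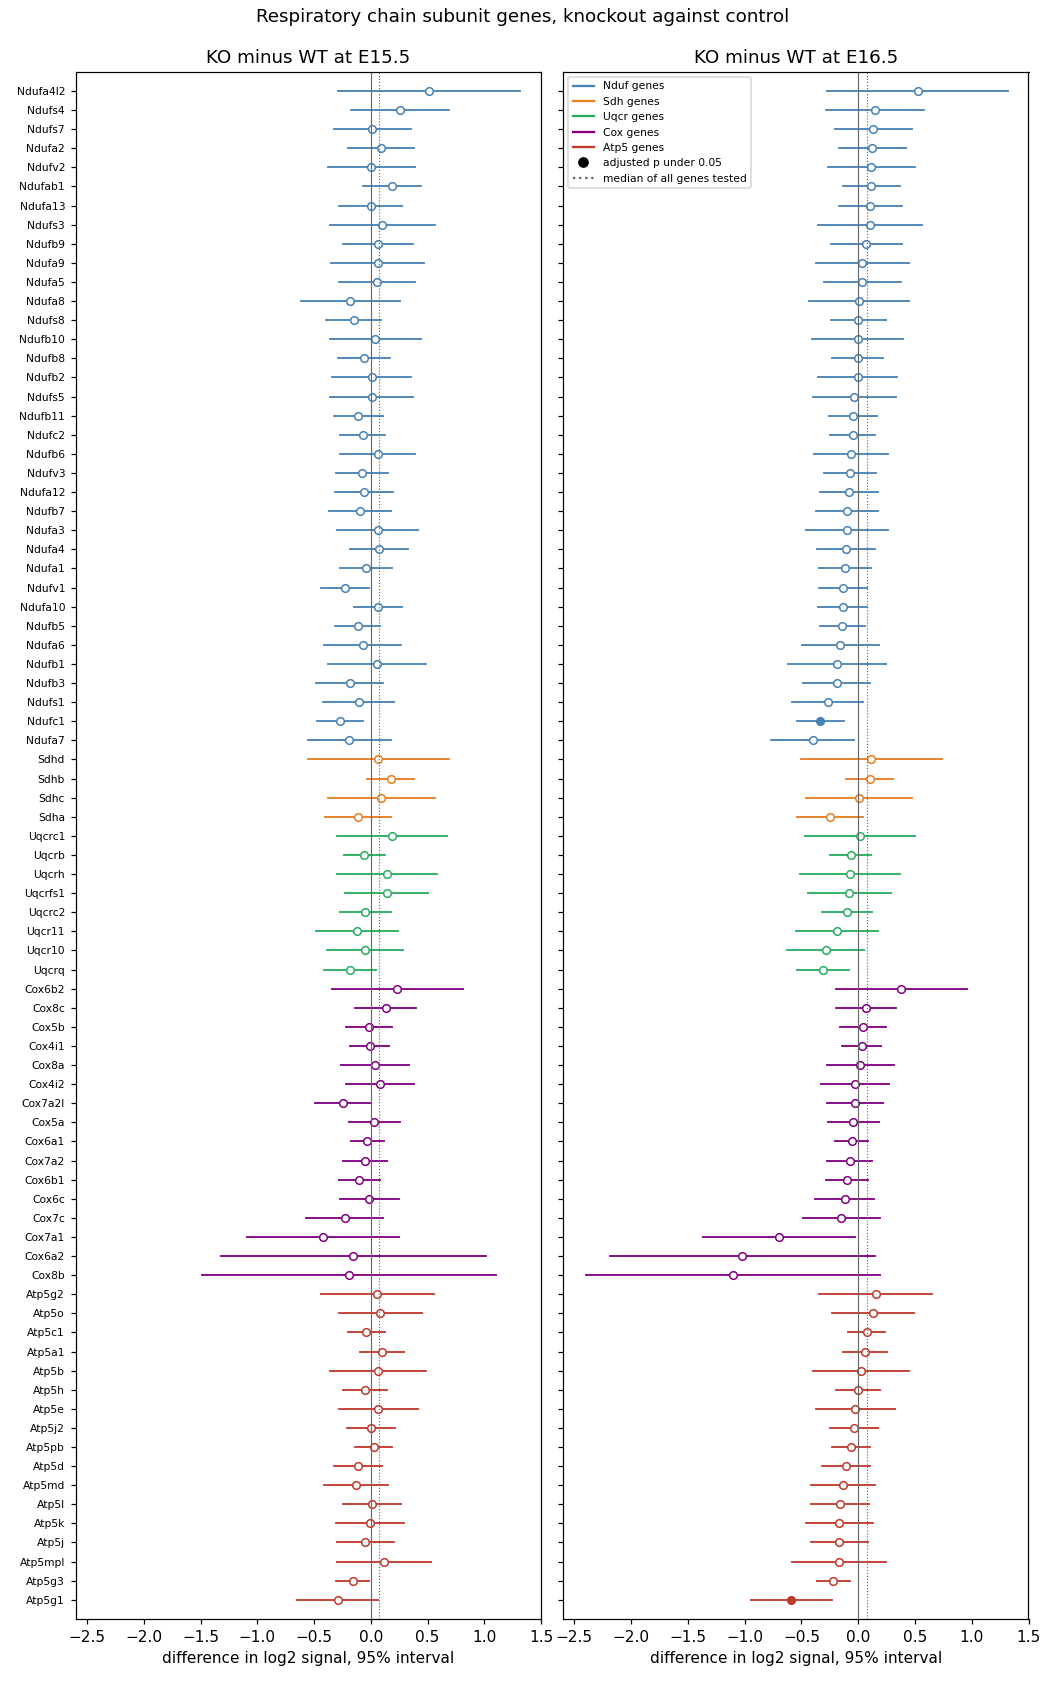
Difference in log2 signal between KO and control glands with its 95% interval for the 80 subunit genes tested, at E15.5 (left) and E16.5 (right), coloured by symbol group and ordered by the E16.5 value within it. Nearly all points lie close to 0; filled points mark Ndufc1 (−0.33) and Atp5g1 (−0.59) at E16.5, the only members that passed, and the dotted line is the median of all genes tested.

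Whole glands mix cells with and without Dicer, and fewer cells of a type and less RNA per cell cannot be told apart in them. Signals of cell type markers differed between genotypes. Of 12 macrophage markers, 6 rose in KO glands at E15.5 and 11 at E16.5, and the mean log2 signal of the list was 8.16 to 8.67 in KO against 7.58 to 7.85 in control arrays at E15.5 and 9.00 to 9.41 against 7.84 to 8.43 at E16.5. Of 9 cortex markers, 2 fell at E15.5 and 4 at E16.5, and of 7 chromaffin cell markers none passed at E15.5 and 3 rose at E16.5. The part of these shifts in the subunit values was not tested.

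Complex I is the entry point for electrons from NADH, and 35 of its 36 members were tested. None passed at E15.5, and Ndufc1 alone passed at E16.5. Ndufc1 encodes a small accessory subunit of the membrane arm. At E16.5 its log2 signals were 12.86, 12.94, 12.75 and 12.73 in KO glands, against 13.16, 13.33, 13.12 and 12.99 in control glands. Every KO value lay below every control value, and the difference was −0.33 (SE 0.10, 95% interval −0.54 to −0.13, adjusted p = 0.0361, limma, 4 arrays per group). At E15.5 its values were 12.73, 12.82, 12.70 and 12.91 in KO against 13.12, 13.02, 13.19 and 12.94 in control glands, again without overlap, a difference of −0.28 that did not pass (adjusted p = 0.113). A further bright probe set of Ndufc1 was lower in KO by 0.18 at E15.5 and 0.42 at E16.5 in the mean, with overlapping groups at E16.5. The E16.5 call was lost without KO replicate 1, 3 or 4, control replicate 1, 2 or 3, or the E15.5 replicate 1 pair, with the difference between −0.39 and −0.27 whichever array was left out. It was also lost in a fit of the E16.5 groups alone (adjusted p = 0.111), after quantile normalization (adjusted p = 0.0587), with the genotype offset allowed for (adjusted p = 0.0813), and with only unique probe sets (adjusted p = 0.0513). The offset fit asks for a difference larger, in either direction, than the KO shift of dim probe sets, and it subtracts nothing. Centring on the 75th percentile kept the Ndufc1 call (−0.42, adjusted p = 0.0286).

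Ndufa7, another accessory subunit, had the lowest value of complex I at E16.5. Its log2 signals were 12.30, 12.63, 12.10 and 11.89 in KO and 12.91, 12.77, 12.42 and 12.43 in control glands, groups that overlap, and the difference of −0.40 did not pass (95% interval −0.77 to −0.04, adjusted p = 0.161). A dimmer Ndufa7 probe set, singled out after its values were seen, differed more. It read 9.47, 9.86, 9.12 and 9.09 in KO against 10.82, 11.08, 10.24 and 10.23 in control glands at E16.5, a difference of −1.21 without overlap. At E15.5 it read 8.77 to 9.53 in KO and 9.70 to 10.54 in control glands, a difference of −0.94. The other 3 bright Ndufa7 probe sets differed by −0.35 to −0.26 at E16.5, so the probe sets of this gene disagree on size, and which transcript the dimmer one measures was not examined.

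At the other end of complex I, Ndufa4l2 had the highest value at both stages. This relative of Ndufa4 is known as a target of hypoxia signalling. Its log2 signals at E16.5 were 8.66, 9.19, 8.40 and 8.55 in KO and 8.82, 7.78, 8.31 and 7.80 in control glands, and at E15.5 7.67, 8.69, 10.04 and 8.23 in KO and 7.81, 8.06, 8.21 and 8.51 in control glands. The groups overlap at both stages, and the differences of 0.52 (95% interval −0.28 to 1.32) and 0.51 (−0.29 to 1.31) did not pass. Without control E16.5 replicate 2 the E16.5 difference was 0.39 (adjusted p = 0.599, limma). Without KO replicate 3, which read 10.04, the E15.5 difference was 0.05. Ndufa4 itself was 12.42 to 12.89 in KO and 12.62 to 12.89 in control glands at E16.5 (−0.10, 95% interval −0.36 to 0.15) and differed by 0.07 at E15.5 (−0.19 to 0.32). Among the catalytic and core subunits none passed. Ndufs1, the large iron-sulfur subunit, differed by −0.27 at E16.5, Ndufv1, which binds NADH, by −0.13, and Ndufs7 and Ndufs8, which carry iron-sulfur clusters to the quinone site, by 0.13 and 0.00. Without control E16.5 replicate 2 these were −0.38 for Ndufs1 (adjusted p = 0.101), −0.05 for Ndufv1, 0.31 for Ndufs7 (adjusted p = 0.142) and 0.11 for Ndufs8.

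Complex II, succinate dehydrogenase, has all 4 subunits encoded in the nucleus and also works in the tricarboxylic acid cycle. None of the 4 passed at either stage. Sdha, the flavoprotein, read 11.39, 11.40, 11.72 and 11.79 in KO and 11.81, 11.47, 12.01 and 12.00 in control glands at E16.5, overlapping groups with a difference of −0.25 (95% interval −0.54 to 0.04). The low control value of Sdha is replicate 2, and without that array the difference was −0.365 (adjusted p = 0.0744, limma). Sdhb, the iron-sulfur protein, read 12.31, 12.50, 12.33 and 12.34 in KO and 12.46, 12.14, 12.34 and 12.15 in control glands (0.10, 95% interval −0.11 to 0.31, and 0.06 without control E16.5 replicate 2). The membrane anchors Sdhc and Sdhd were low on control E16.5 replicate 2. Sdhd read 10.46 to 11.09 in KO glands, against 9.48 on that array and 11.02 to 11.38 on the other control arrays. Sdhc read 9.97 to 10.20 in KO glands, against 9.55 on that array and 10.09 to 10.35 on the other control arrays. With that array the differences were 0.12 for Sdhd and 0.01 for Sdhc, and without it −0.30 (adjusted p = 0.224) and −0.16 (adjusted p = 0.699). At E15.5 the 4 differences ran from −0.12 for Sdha to 0.17 for Sdhb, and the interval of Sdhb was −0.03 to 0.38.

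Complex III hands electrons from ubiquinol to cytochrome c. None of its 8 members passed, and 7 of them lay below 0 at E16.5. Uqcrq, a small accessory subunit, was the lowest. It read 12.01, 12.31, 12.22 and 12.08 in KO and 12.53, 12.26, 12.55 and 12.53 in control glands at E16.5, where the low control array is replicate 2 and makes the groups overlap. The difference was −0.31 (95% interval −0.54 to −0.08, adjusted p = 0.0835), and without that array −0.38 (adjusted p = 0.0325). Its other 3 probe sets were dim. Uqcrc1, a core subunit, was the highest with all arrays, reading 10.99 to 11.81 in KO and 10.84 to 11.78 in control glands at E16.5 for a difference of 0.02 (95% interval −0.47 to 0.50). Without control E16.5 replicate 2 it was −0.18 (adjusted p = 0.663), and all 8 members lay below 0. Cyc1, the cytochrome c1 subunit, which the symbols do not place among the members, differed by −0.02 at E16.5 and −0.03 at E15.5.

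Complex IV reduces oxygen to water, and it held both the widest differences and the least certain ones. None of its 16 tested members passed. Cox8b, Cox6a2 and Cox7a1, the muscle isoforms, had the lowest E16.5 values of all members, −1.10, −1.02 and −0.70, with unadjusted p under 0.05 for Cox7a1 alone (adjusted p = 0.184). Cox8b read 5.57, 5.73, 5.59 and 5.56 in KO and 6.17, 9.55, 5.74 and 5.39 in control glands. Cox6a2 read 6.53, 6.57, 6.43 and 6.12 in KO and 7.10, 9.99, 6.44 and 6.21 in control glands. Cox7a1 read 6.60, 6.99, 6.27 and 6.03 in KO and 7.28, 8.19, 6.56 and 6.68 in control glands. In each gene the high control value is replicate 2 and the remaining values overlap between genotypes. The mean of the 8 muscle markers was 5.48 to 7.98 in KO glands at E16.5, against 11.8 on that control array, and at most 9.10 on any of the other 15 arrays. Without it the differences were −0.15 for Cox8b, −0.17 for Cox6a2 and −0.36 for Cox7a1, with adjusted p of 0.701, 0.636 and 0.417.

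**Figure D2:**
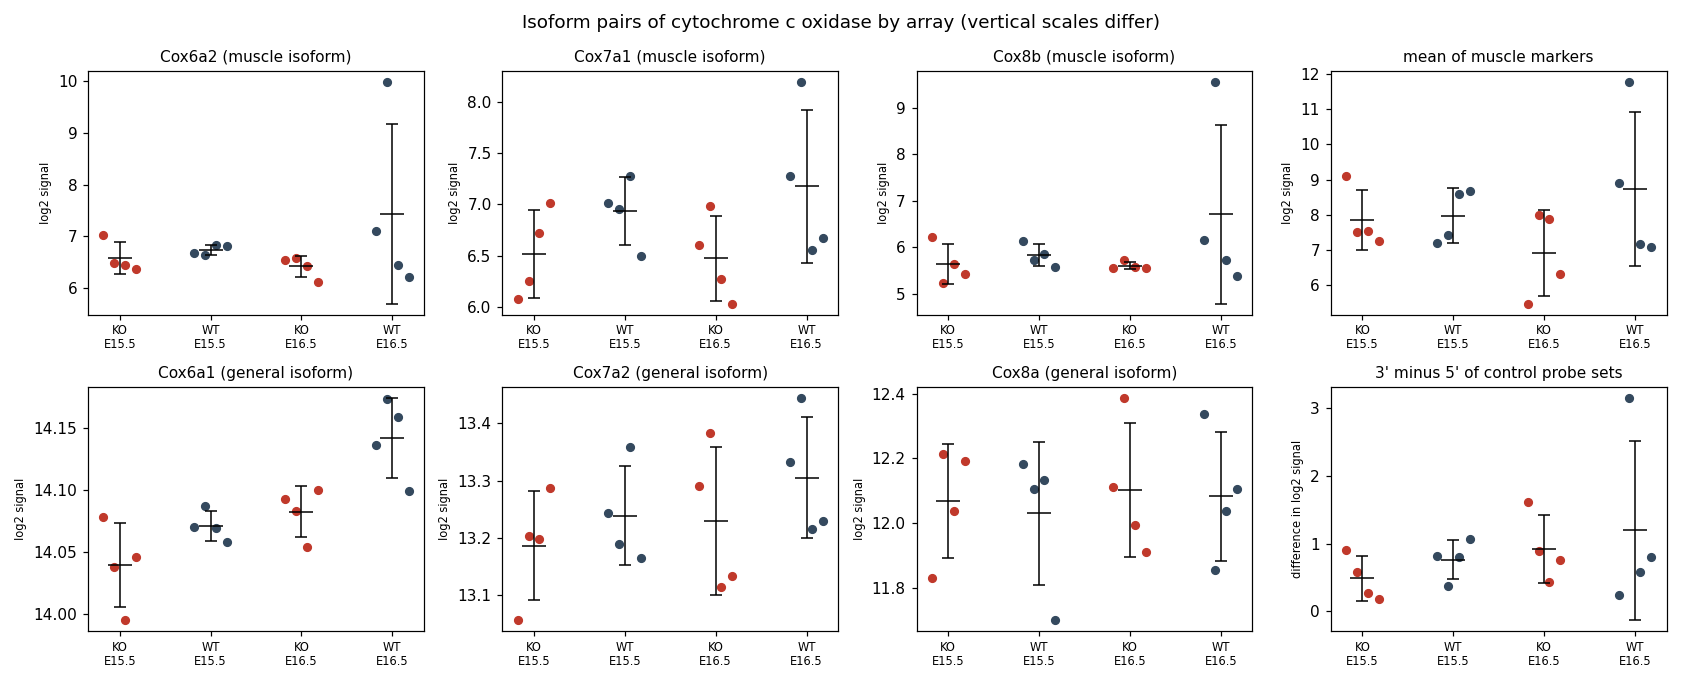
Log2 signal by array (points), with mean and SD bars, for muscle isoforms (upper row) and general isoforms (lower row) of cytochrome c oxidase, KO left of control (WT) at each stage. The last column shows the mean of 8 muscle markers and the 3′ minus 5′ signal; 1 control E16.5 array holds the highest Cox6a2 (9.99), Cox7a1 (8.19), Cox8b (9.55), muscle marker (11.8) and 3′ minus 5′ (3.15) values.

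The general isoforms of the same subunits differed little on their brightest probe sets, with narrow intervals. Cox6a1 read 14.05 to 14.10 in KO and 14.10 to 14.17 in control glands at E16.5 (−0.06, 95% interval −0.20 to 0.09). It had the highest mean signal of the members tested, 14.08. A second Cox6a1 probe set, with a mean of 12.58, differed by −0.21 at E16.5, with overlapping groups. Cox7a2 differed by −0.07 (−0.27 to 0.12) and Cox8a by 0.02 (−0.28 to 0.32; −0.06 without control E16.5 replicate 2). Cox4i1, the general isoform of subunit 4 and the reported miR-338 target in rat, read 13.17, 13.23, 13.14 and 13.19 in KO and 13.23, 13.09, 13.16 and 13.12 in control glands at E16.5 (0.03, 95% interval −0.14 to 0.20) and differed by −0.01 at E15.5 (−0.18 to 0.16). Its hypoxia-linked isoform Cox4i2 was dim, 5.10 to 5.35 in KO and 4.96 to 5.58 in control glands at E16.5.

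The remaining isoform sets included genes known from other tissues. Cox6b2, known from testis, had the highest complex IV value, with 7.93, 8.66, 7.75 and 7.64 in KO and 8.16, 7.66, 7.69 and 6.97 in control glands at E16.5 (0.38, 95% interval −0.20 to 0.95), while the general Cox6b1 differed by −0.10. Cox8c, also known from testis, differed by 0.07. Cox7a2l, which joins complexes III and IV into supercomplexes and is known to be shortened in C57BL/6 mice, read 11.83, 11.73, 11.42 and 11.84 in KO and 12.00, 12.02, 12.06 and 11.76 in control glands at E15.5 (−0.25, adjusted p = 0.250). At E16.5 its difference was −0.03 (95% interval −0.27 to 0.22). Cox7b2, below the filter, read 3.28 to 3.50 in KO and 3.58 to 3.72 in control glands at E16.5, near the floor of the arrays.

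Complex V, ATP synthase, had 17 members tested, and 1 of them fell at E16.5. Its rotor is a ring of c subunits, and Atp5g1, Atp5g2 and Atp5g3 (now also called Atp5mc1 to Atp5mc3) encode the same mature c subunit behind different targeting peptides. Their promoter windows are printed because these 3 genes share a product and 1 of them passed, together with that of Ndufc1, the other member that passed. Each is 300 bases long, runs 5′ to 3′ across the annotated start, and comes from RefSeq on GRCm38.p6, minus strand: Atp5g1 at chr11:96075582-96075881, Atp5g2 at chr15:102670998-102671297, Atp5g3 at chr2:73911277-73911576 and Ndufc1 at chr3:51408906-51409205. Capitals mark a match to a motif searched on both strands.
Atp5g1: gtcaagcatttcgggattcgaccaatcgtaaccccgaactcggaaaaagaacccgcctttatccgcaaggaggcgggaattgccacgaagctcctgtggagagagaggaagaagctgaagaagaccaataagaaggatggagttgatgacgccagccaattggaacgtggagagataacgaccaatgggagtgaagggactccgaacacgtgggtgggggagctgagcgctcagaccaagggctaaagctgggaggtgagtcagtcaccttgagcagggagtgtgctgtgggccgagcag
Atp5g2: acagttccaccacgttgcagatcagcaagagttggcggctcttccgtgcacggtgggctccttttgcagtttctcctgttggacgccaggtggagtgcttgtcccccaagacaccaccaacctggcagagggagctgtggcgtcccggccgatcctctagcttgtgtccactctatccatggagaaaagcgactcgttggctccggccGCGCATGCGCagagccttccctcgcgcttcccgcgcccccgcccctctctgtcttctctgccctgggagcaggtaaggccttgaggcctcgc
Atp5g3: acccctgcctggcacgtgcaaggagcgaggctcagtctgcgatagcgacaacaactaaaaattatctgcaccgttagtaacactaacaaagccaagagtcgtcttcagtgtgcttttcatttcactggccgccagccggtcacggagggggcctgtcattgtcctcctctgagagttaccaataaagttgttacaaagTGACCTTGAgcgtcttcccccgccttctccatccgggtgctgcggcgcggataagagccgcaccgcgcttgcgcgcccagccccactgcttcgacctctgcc
Ndufc1: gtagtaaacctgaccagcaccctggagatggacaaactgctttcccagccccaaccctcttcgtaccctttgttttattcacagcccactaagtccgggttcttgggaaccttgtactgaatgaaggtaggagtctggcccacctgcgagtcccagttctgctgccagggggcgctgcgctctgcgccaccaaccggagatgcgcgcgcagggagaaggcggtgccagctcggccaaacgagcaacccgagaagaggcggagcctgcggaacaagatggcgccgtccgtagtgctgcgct
The motifs were the palindrome of NRF1, CCGGAAGT of the ETS family with GABPA, TCAAGGTCA of Nr5a1 (Sf1) and the estrogen-related receptors, and a YY1 motif, which is not a palindrome. Atp5g2 held the NRF1 palindrome, in capitals above, at −42 from the start site, and Atp5g3 held the Nr5a1 letters at −52 on the reverse strand, while Atp5g1 and Ndufc1 held none of the 4 exact motifs.

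Among the 67 members with a RefSeq promoter, 4 (5.97%) held the NRF1 letters, against 2.11% of the 10913 tested genes with one. The ETS letters were found in 5 members (7.46%) and 8.12% of tested genes. The YY1 letters were found in 3 members (4.48%) and 1.61% of tested genes. The Nr5a1 letters were found in only 2 members (2.98%), Atp5g3 and Sdhd, and in 0.312% of tested genes. Over the promoters of all 27025 genes the shares were 1.07% for NRF1, 4.31% for ETS, 0.755% for YY1 and 0.466% for Nr5a1. The NRF1 and Nr5a1 letters do not overlap each other in these windows, and a match is a description of the sequence, not a site.

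Atp5g1 gave the largest fall among members that passed. At E16.5 its log2 signals were 11.86, 12.22, 11.55 and 11.51 in KO glands, against 12.64, 12.20, 12.15 and 12.51 in control glands. KO replicate 2 lay among the controls, so the groups overlap, and the difference was −0.59 (SE 0.17, 95% interval −0.95 to −0.23, adjusted p = 0.0341, limma, 4 arrays per group). At E15.5 it read 11.55, 12.00, 11.87 and 12.04 in KO and 12.22, 12.25, 12.28 and 11.87 in control glands, a difference of −0.29 (95% interval −0.65 to 0.07, adjusted p = 0.393). The E16.5 call was lost without KO replicate 1, 3 or 4 or without control replicate 1 or 4, with differences between −0.74 and −0.50 whichever array was left out, and in a fit of the E16.5 groups alone (adjusted p = 0.0956) or with the genotype offset allowed for (adjusted p = 0.0531). Centring on the 75th percentile kept it (−0.68, adjusted p = 0.0218). A second Atp5g1 probe set near the floor, with a mean of 5.11, differed by −0.01 at E16.5, and averaging both gave −0.30 (adjusted p = 0.184).

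Atp5g3 differed less, with tighter values. It was named after its values were seen. At E16.5 it read 13.46, 13.42, 13.41 and 13.40 in KO and 13.62, 13.62, 13.67 and 13.65 in control glands, without overlap, a difference of −0.22 (SE 0.07, 95% interval −0.36 to −0.07) that just missed the threshold (adjusted p = 0.0525). At E15.5 it read 13.47, 13.50, 13.44 and 13.47 in KO and 13.64, 13.66, 13.63 and 13.58 in control glands, again without overlap (−0.16, adjusted p = 0.205). The sign of Atp5g2 rested on 1 array. It read 11.46, 11.78, 11.62 and 11.49 in KO and 11.93, 10.49, 11.65 and 11.68 in control glands at E16.5, where the low value is control replicate 2. Its difference was 0.15 (95% interval −0.34 to 0.65) with that array and −0.16 (adjusted p = 0.516) without it.

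**Figure D3:**
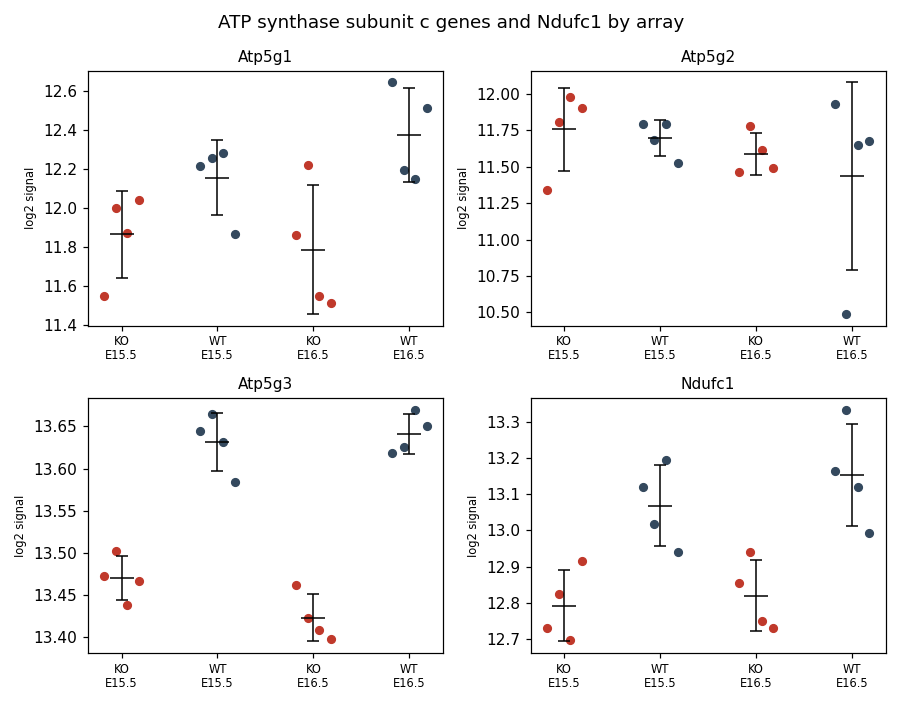
Log2 signal by array (points), with mean and SD bars, for the 3 genes of ATP synthase subunit c and for Ndufc1, KO left of control (WT) at each stage. Atp5g3 and Ndufc1 show no overlap between genotypes at either stage, Atp5g1 is lower in KO with overlap, and Atp5g2 has 1 low control E16.5 array at 10.49.

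No subunit of the catalytic head of ATP synthase passed. Atp5a1, Atp5b and Atp5c1, the alpha, beta and gamma subunits, differed by 0.06, 0.03 and 0.07 at E16.5 and by 0.10, 0.06 and −0.04 at E15.5. Without control E16.5 replicate 2 the E16.5 sign of Atp5b turned (−0.22, adjusted p = 0.319), while Atp5a1 and Atp5c1 differed by 0.05 and 0.03. Groups without overlap and lower in KO were seen for Ndufc1 and Atp5g3 alone among the 80 members at each stage, where 4.70% of all genes at E15.5 and 4.76% at E16.5 showed that pattern. None of the 80 was higher without overlap, where 9.79% and 10.4% of all genes were. Of the 1151 genes with a mean log2 signal over 11, 64 were higher without overlap at E15.5 and 56 at E16.5. Lower without overlap were 66 and 67 of them.

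**Figure D4:**
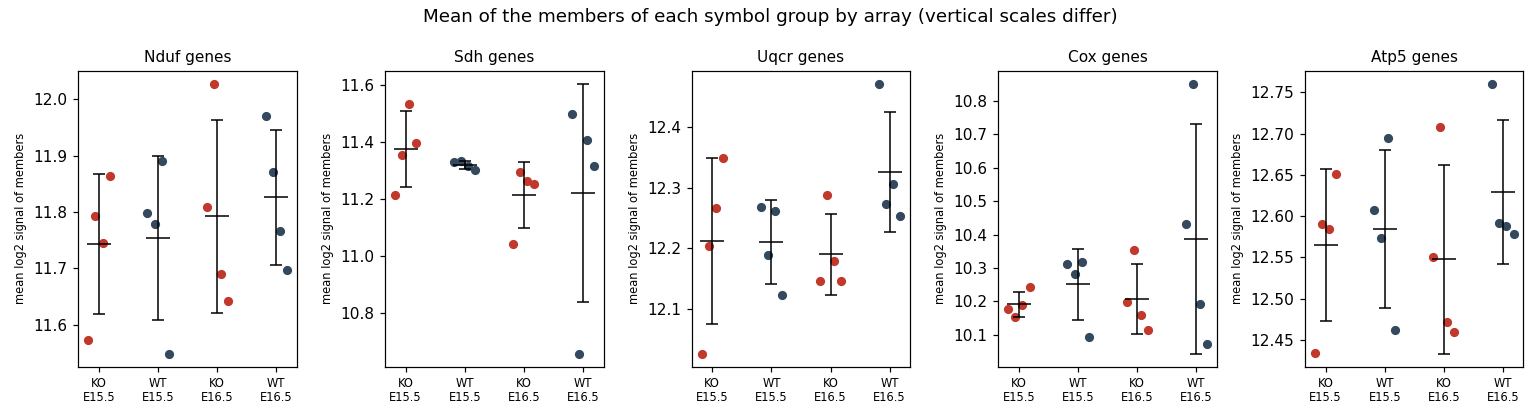
Mean log2 signal over the members of each symbol group by array (points), with mean and SD bars, KO left of control (WT) at each stage. Genotypes overlap in every panel; on control E16.5 replicate 2 the Sdh mean is 10.7, the lowest of the 16 arrays, and the Cox mean is 10.9, the highest.

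The knockout effects at the 2 stages were set against each other with an interaction term. No member differed, and no gene did among all tested (0.0%, adjusted p under 0.05, limma), with an unadjusted p under 0.05 for 0 members and 1.89% of genes (258). The difference of effects ran from −0.91 for Cox8b, whose control E16.5 replicate 2 stands apart as given above, to 0.22 for Cox7a2l, with a median of −0.04 against 0.01 over all genes. For Ndufc1 it was −0.06 and for Atp5g1 −0.30.

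Between E15.5 and E16.5 the members moved little. In KO glands none changed over the day, where 0.902% of all genes did. The median E16.5 minus E15.5 difference there was 0.03, with 50 of 80 members above 0, against 51.7% of all genes. In control glands none changed, where 0.0953% of all genes did, with a median of 0.07 and 65 of 80 members above 0, against 51.6% of all genes. Without control E16.5 replicate 2 the control median was 0.05, with 56 members above 0. That array was the highest of the 16 for 34 of the 80 members and the lowest for 12, against 14.9% and 21.0% of all genes. Uqcrq reached an unadjusted p under 0.05 in controls (0.28, adjusted p = 0.453), where 7.85% of all genes did, and 0 members did in KO glands, where 9.51% of all genes did. Groups without overlap and higher at E16.5 were seen for 1 member in controls, Cox6a1, with 14.10 to 14.17 at E16.5 against 14.06 to 14.09 at E15.5, where 2.31% of all genes showed that pattern. In KO glands they were seen for 2, Ndufs8 (0.19) and Atp5c1 (0.09), where 5.53% of all genes did.

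Genes that serve the chain were read beside its subunits. Of 47 tested assembly factors of the complexes, 1 rose in KO glands at E15.5 and none passed at E16.5, with medians of −0.03 and −0.07. The 1 was Cox10, which makes heme A for complex IV and is a reported miR-210 target in human cells. It read 8.69, 8.85, 8.97 and 8.65 in KO against 8.38, 8.25, 8.38 and 8.46 in control glands at E15.5, without overlap (0.42, adjusted p = 0.0286), and differed by 0.29 at E16.5 (adjusted p = 0.107). The call was lost without KO replicate 2 or 3, control replicate 1, 2 or 3, or the replicate 1 pair, and also after quantile normalization or centring (adjusted p of 0.116 and 0.115), with the mean of its probe sets (adjusted p = 0.0668) and with the genotype offset allowed for (adjusted p = 0.0921). Its other reported companions, Ndufa4 and Sdhd, did not pass at either stage, as given above.

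Of 17 genes of electron carriers and coenzyme Q synthesis, 1 fell at E15.5 and 1 rose and 1 fell at E16.5. Coq8a, an atypical kinase needed for coenzyme Q synthesis, read 6.54, 6.45, 6.41 and 6.35 in KO against 7.52, 7.02, 7.20 and 7.19 in control glands at E15.5 and 6.66, 6.86, 6.92 and 6.75 against 7.46, 7.44, 7.82 and 6.99 at E16.5, without overlap. It fell by 0.79 (adjusted p = 0.00311) and by 0.63 (adjusted p = 0.0109), calls that were lost when all its probe sets were averaged (−0.32 and −0.35, adjusted p of 0.141 and 0.0726), and at E16.5 also in a fit of that stage alone (adjusted p = 0.0573). Coq6, a monooxygenase of the same pathway, rose at E16.5 (0.45, adjusted p = 0.0201), with 9.15 to 9.37 in KO and 8.57 to 9.11 in control glands. That call was lost without KO replicate 3 or 4 or control replicate 4, and after quantile normalization (adjusted p = 0.0596) or centring (adjusted p = 0.0797), or in a fit of that stage alone (adjusted p = 0.0842). Cycs, the soluble cytochrome c, differed by −0.04 and −0.15 and did not pass.

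The regulators of these genes did not pass. Of 12 tested, none changed at either stage, with medians of 0.02 and 0.00 at E15.5 and E16.5. The E16.5 differences were −0.01 for Nrf1 (95% interval −0.25 to 0.23) and 0.01 for Gabpa (−0.30 to 0.31), transcription factors of respiratory chain promoters, 0.15 for the estrogen-related receptor Esrra (−0.15 to 0.45) and −0.13 for Tfam (−0.42 to 0.16), which packages and transcribes mitochondrial DNA. The coactivator Ppargc1a lay below the filter.

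The strongest change among the mitochondrial lists was that of Top1mt, the mitochondrial DNA topoisomerase. It read 8.21, 8.18, 7.92 and 8.42 in KO against 9.54, 9.33, 9.61 and 9.39 in control glands at E15.5, and 8.56, 8.62, 8.62 and 8.56 in KO against 10.36, 9.88, 10.05 and 9.99 in control glands at E16.5. It fell by 1.28 (SE 0.12, adjusted p = 6.33e-06) and 1.48 (SE 0.12, adjusted p = 8.63e-07), and the call held in all 27 alternative fits at each stage. Top1mt was the only 1 of 14 genes of mitochondrial DNA maintenance and transcription to pass at either stage. Acadl, the long-chain acyl-CoA dehydrogenase that starts a round of fatty acid oxidation, was the only 1 of 13 in its list. It fell by 0.83 at E15.5 (10.65 to 10.85 in KO, 11.41 to 11.71 in control glands, adjusted p = 3.28e-05) and by 1.04 at E16.5 (10.45 to 10.61 in KO, 11.47 to 11.69 in control glands, adjusted p = 1.95e-06), also in all 27 alternative fits.

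Antioxidants and carriers of the mitochondria held smaller falls. Of 10 antioxidant genes, 1 fell at E15.5 and 2 at E16.5. Sod2, the matrix superoxide dismutase, fell by 0.40 (adjusted p = 0.0410) and by 0.45 (adjusted p = 0.0149), with 11.38 to 11.67 in KO and 11.88 to 12.12 in control glands at E16.5. Its E16.5 call was lost without KO replicate 3 and with only unique probe sets (adjusted p = 0.242). Its E15.5 call was lost on leaving out any 1 of 10 arrays and in 5 other fits, with adjusted p of 0.0530 to 0.535 there. Prdx3, a matrix peroxiredoxin, fell by 0.82 at E16.5 (adjusted p = 0.0491), with 11.52, 11.36, 12.07 and 12.10 in KO against 12.90, 11.64, 12.85 and 12.92 in control glands, and that call was lost on leaving out any 1 of 13 arrays and in 3 other fits, with adjusted p of 0.0569 to 0.153 there. The low control value of Prdx3 is replicate 2, and without that array the call held, with a difference of −1.13. Of 12 carriers and porins, Slc25a3, which imports the phosphate that ATP synthase uses, fell at E16.5 (13.17 to 13.56 in KO, 13.65 to 13.96 in control glands, −0.41, adjusted p = 0.0167), a call lost without KO replicate 2, with the mean of its probe sets (adjusted p = 0.199), with only unique probe sets (adjusted p = 0.473) and in a fit of that stage alone (adjusted p = 0.0818).

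The pathways that feed the chain showed few calls. None of 18 genes of the tricarboxylic acid cycle and pyruvate dehydrogenase passed at either stage, with medians of 0.04 and −0.09. None of 23 import genes passed, with medians of 0.05 and −0.01. Of 76 mitochondrial ribosomal protein genes, Mrps31 rose at E15.5 (0.41, adjusted p = 0.0183) and none passed at E16.5. The Mrps31 call was lost without KO replicate 4 or control replicate 3 or 4, after quantile normalization (adjusted p = 0.0873) or centring (adjusted p = 0.124), with the mean of its probe sets (adjusted p = 0.0755), in a fit of the E15.5 groups alone (adjusted p = 0.0687) and with the genotype offset allowed for (adjusted p = 0.0728). Of 16 glycolysis genes, 2 rose at E15.5 and 1 at E16.5. Ldhb, the lactate dehydrogenase B chain, read 9.95 to 10.12 in KO against 9.16 to 9.66 in control glands at E15.5 and 9.65 to 10.04 against 8.99 to 9.42 at E16.5. It rose by 0.64 (adjusted p = 0.00405) and by 0.60 (adjusted p = 0.00436), and the calls held in all 26 alternative fits. Hk2, a hexokinase, rose at E15.5 (0.53, adjusted p = 0.0288), a call lost without KO replicate 1, 2 or 4, control replicate 2, 3 or 4, or the replicate 1 pair, after quantile normalization (adjusted p = 0.0853) or centring (adjusted p = 0.0931), and with the genotype offset allowed for (adjusted p = 0.0740).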

How the data were processed

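The deposited table held log2 signals of 45101 probe sets on 16 arrays, which the authors made with RMA; the submitters' processing notes list RMA and limma. Their versions and the grouping of arrays in RMA are not given in the sources used here. RMA compresses dim probe sets towards the background. The values were used as deposited. Gene symbols came from the platform annotation and were updated through RefSeq (GRCm38.p6); all 82 members matched. The brightest probe set on average stood for a gene: 33 members had 1 probe set and 49 had more, 169 in all. A gene was tested when above the 40th percentile on at least 4 arrays.

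A mean per group was fitted to all 16 arrays with limma 3.58.1 (R 4.3.3) and moderated with eBayes. Tests were two-sided, with Benjamini-Hochberg adjustment over the 13642 genes, at a threshold of 0.05. The p-values measure the spread between litter pools. The number of arrays limits precision, with a median SE of 0.139 for a knockout effect. The fit was tested on simulated data. Intervals are at 95%. Tables and figures were made with Python 3.11.15.

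Alternatives were other filters, normalizations, probe set rules, array weights, a replicate block, a fit of only the groups compared, an allowance for the genotype offset in dim probe sets, and each array left out. The allowance tests for a difference larger than that offset in either direction and subtracts nothing. The offset was 0.10 at E15.5 and 0.07 at E16.5, with KO higher. The members and gene lists were chosen with earlier results of these data known. Members named were those that passed, the highest and lowest of each complex at E16.5, the Sdh genes and the isoform sets. Up to 4 passing genes per list were named, with Nrf1, Gabpa, Esrra, Tfam, Ppargc1a, Cycs and Cyc1 always. Atp5g3 and other members outside this rule were named after their values were seen. Besides the marker lists quoted, 5 erythroid genes, 6 endothelial and 6 capsule and mesenchyme genes gave 0 calls at either stage, while 1 of 4 brown adipose, 0 of 1 kidney and 1 of 3 gonad genes tested passed at E16.5 only.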

Additional observations from a re-analysis of the deposited data

Results flagged for a closer look

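In groups of 4 arrays, 5 of 100 group values of the 25 named members held 1 array far from the other 3, by Dixon's criterion at 95%. Chance gives about 1 in 20. Atp5g1 was 11.87 on control E15.5 replicate 4, against 12.22 to 12.28 on the other control arrays of that stage. Cox8a was 11.7 on the same array, against 12.1 to 12.18. Cox8b was 5.73 on KO E16.5 replicate 2, against 5.56 to 5.59, and Sdhb was 12.5 on that array, against 12.31 to 12.34. Uqcrq was 12.26 on control E16.5 replicate 2, against 12.53 to 12.55.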

How the results depend on the processing

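The number of subunit genes that passed was 0 at E15.5. It was 1 with no filter (Cox7b2) and 1 with array weights (Ndufc1), and 0 whichever array was left out. Over all genes 800 passed at E15.5 in the main fit, 1688 of 18193 with no filter and 1350 with array weights. At E16.5 the number of subunit genes that passed was 2 (Atp5g1 and Ndufc1), where 1439 of the 13642 genes did. It became 3 with no filter (Atp5g3 joining them), stayed at 2 with the mean of all probe sets (Atp5g3 and Ndufc1) and became 1 after quantile normalization, 4 after centring on the 75th percentile (Atp5g1, Atp5g3, Ndufc1 and Uqcrq), 0 with unique probe sets, 8 with array weights, 0 with only the groups compared and 0 with the genotype offset allowed for. Over all genes the E16.5 count was 2355 of 18193 with no filter, 1528 with the mean of all probe sets and 1176 after quantile normalization. It was 1056 after centring, 1316 of 12321 with unique probe sets and 4938 with array weights. With only the groups compared it was 817, and with the genotype offset allowed for 1050. The subunit count was 0 to 2 on leaving out an array and 1 without the E15.5 replicate 1 pair. In the control stage comparison the subunit count was 0, and 1 with array weights (Uqcrq), where 13 and 1102 of all genes passed. The cause was not tested. With the replicate block the E16.5 count was 0 (Ndufc1 adjusted p = 0.0635, Atp5g1 0.0657), and at E15.5 the block ended the calls of Cox10 (0.0726) and Mrps31 (0.0751). KO and control pools came from the same litters, but whether equal numbers share a litter is not stated in the labels. Arrays of the same number correlated between −0.39 and 0.45 in their deviations from the group means, over 0.1 in 3 of 4 pairs at E16.5 and 2 of 4 at E15.5, so the numbers were not taken as pairs, and pairing by litter was not tested. The median over members ran from −0.09 to 0.04 at E15.5 and from −0.15 to −0.03 at E16.5.

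Signs turned for small differences, and also for Atp5g1 at E15.5 (−0.29 in the main fit) and Sdha at E16.5 (−0.25 in the main fit). With array weights these were Cox4i1 0.001 at E15.5, and at E16.5 Atp5g2 −0.074, Cox4i2 0.081, Cox8a −0.041, Sdhc −0.178, Sdhd −0.168 and Uqcrc1 −0.116. With centring they were Atp5g2 −0.018, Cox8a −0.038, Ndufa4 −0.008 and Sdhd −0.011 at E15.5, and Cox4i1 −0.056, Cox8a −0.071, Cox8c −0.02, Sdhc −0.083, Uqcrc1 −0.073 and Gabpa −0.083 at E16.5. With the mean of all probe sets they were Atp5g2 −0.042, Cycs 0.005, Gabpa −0.128 and Nrf1 0.059 at E15.5, and Atp5g2 −0.02, Sdha 0.029, Sdhc −0.033, Gabpa −0.061 and Nrf1 0.072 at E16.5. After quantile normalization they were Cox8c −0.016, Sdhc −0.061, Uqcrc1 −0.011 and Gabpa −0.066 at E16.5. With unique probe sets they were Atp5g1 0.021 and Cycs 0.01 at E15.5.

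On leaving out 1 array or the E15.5 replicate 1 pair, signs turned within these ranges: at E15.5 Atp5g2 −0.015 to 0.197, Cox4i1 −0.056 to 0.022, Cox4i2 −0.026 to 0.199, Cox8a −0.071 to 0.118, Ndufa4 −0.010 to 0.133, Sdhc −0.177 to 0.239, Sdhd −0.021 to 0.136, Cyc1 −0.091 to 0.020, Cycs −0.074 to 0.003, Gabpa −0.010 to 0.178, Nrf1 −0.117 to 0.063 and Tfam −0.107 to 0.004. At E16.5 they were Atp5g2 −0.162 to 0.319, Cox4i2 −0.128 to 0.081, Cox7a2l −0.073 to 0.046, Cox8a −0.077 to 0.102, Cox8c −0.045 to 0.166, Sdhc −0.160 to 0.105, Sdhd −0.304 to 0.329, Uqcrc1 −0.176 to 0.163, Cyc1 −0.070 to 0.011, Gabpa −0.078 to 0.105 and Nrf1 −0.045 to 0.032.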
